A study of Mus musculus with 6 samples.

Results

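The small proline-rich (*Sprr*) genes described here are *Sprr1a*, *Sprr1b*, *Sprr2b*, *Sprr2d*, *Sprr2e*, *Sprr2g*, *Sprr2h*, *Sprr2i*, *Sprr2k* and *Sprr3*, chosen by name from a count table of primary mouse keratinocytes. They are 10 of the 55367 genes in the table and 10 of the 17 whose name starts with *Sprr*. The cells were isolated from the skin of newborn pups of a mixed background (C57BL/6 and 129/Sv) with the genotype Ppp1r13lflox/flox;Cre+ERT, so both groups carried floxed copies of *Ppp1r13l*, the gene of iASPP, and a Cre recombinase that tamoxifen activates. Cells of 3 batches were each grown in low-calcium medium, with tamoxifen from 24 h after plating (iASPP KO, n = 3) or without it (iASPP WT, n = 3). The recombinase was expressed from the Rosa locus, which is active in most cell types, and iASPP WT cultures received no tamoxifen, so that an effect of the drug and one of the deletion cannot be told apart. The sample labels give 1 mM tamoxifen and the study's methods 1 μM.

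SPRR proteins are precursors of the cornified envelope, the cross-linked protein shell that replaces the plasma membrane of a terminally differentiated keratinocyte. Transglutaminases join their ends to each other and to loricrin, involucrin and other envelope proteins, and SPRR proteins act as cross-bridges that set how stiff the envelope is. Their genes lie together in the epidermal differentiation complex, and in skin they are known for low levels at rest and for induction by wounding, ultraviolet light, inflammation or a defective barrier.

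RNA was depleted of ribosomal RNA and sequenced as single reads of 42 bases, and the count of a gene is its number of reads on exons. Libraries held 20202517 to 25157117 counts, and 14916 genes passed the filter on low counts and were tested. *Ppp1r13l* was lower in the iASPP KO culture of every batch, with 320, 395 and 139 counts in iASPP KO against 697, 1100 and 472 in iASPP WT of batches 1, 2 and 3 (log2 fold change -1.45, SE 0.18, adjusted p = 0.00296, edgeR's quasi-likelihood test, p-values adjusted by Benjamini-Hochberg over all tested genes). The summed level of 8 keratinocyte markers such as *Krt5* and *Krt14* was 27355 to 30141 CPM (counts scaled to library size, with TMM) in iASPP KO and 28201 to 33006 in iASPP WT, and none of the 8 passed the test. Both cultures of batch 3 stood apart by their fibroblast markers, whose 6 genes summed to 454 CPM in iASPP KO and 669 CPM in iASPP WT, against 33.7 to 51.5 CPM in batches 1 and 2. Of these 6, *Col1a2* (-0.55, adjusted p = 0.0428) and *Col3a1* (-0.87, adjusted p = 0.0269) were lower in iASPP KO on the log2 scale by the same edgeR test. The *Col1a2* call was lost whichever batch was left out (adjusted p 0.105 to 0.275) and that of *Col3a1* without batch 2 (0.157) or batch 3 (0.0715).

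On chromosome 3 of the mouse genome (GRCm38) the 17 *Sprr* genes of the table spanned 284695 bases, from position 92215799 to 92500493. The 10 members took 169276 bases of that stretch. The 7 *Sprr2* members came first, on the plus strand and in the order *Sprr2b*, *Sprr2d*, *Sprr2e*, *Sprr2g*, *Sprr2h*, *Sprr2i* and *Sprr2k*. *Sprr1b*, *Sprr3* and *Sprr1a* followed on the minus strand.

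The *Sprr2* members resemble each other in sequence, as do the *Sprr1* pair, which matters for reads of 42 bases. Their longest transcripts in GENCODE vM21 were 56.7% to 79.2% identical over the 21 pairs of *Sprr2* members (median 68.0%), 67.8% identical between *Sprr1a* and *Sprr1b*, and 50.4% to 56.0% identical between an *Sprr1* and an *Sprr2* gene. Stretches of 42 bases that also occur in a transcript of another gene made up 19.4% of *Sprr2b*, 16.5% of *Sprr2i*, 14.0% of *Sprr2e*, 5.47% of *Sprr2d* and 0.422% of *Sprr2h*. In *Sprr2g*, *Sprr2k*, *Sprr1a*, *Sprr1b* and *Sprr3* no such stretch was found. Reads with several alignments were not counted, so reads from shared stretches can be lost. Values of the genes that share stretches are uncertain to that extent, and to the extent that any read was assigned to a copy.

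Promoters of 6 members are shown for the AP-1 and octamer patterns, which are explained below. In the *Sprr2* genes shown, called or not, both recurred at nearly the same distance from the start. In the *Sprr1* pair the AP-1 pattern lay elsewhere and the octamer was missing. The promoters are the 200 bases before the transcript start in RefSeq (GRCm38.p6), written 5′ to 3′ on the gene's strand. The RefSeq start is that of the count table in *Sprr2d*, *Sprr2e* and *Sprr2h* but lies 85 bases further into the gene in *Sprr2b*, 10 in *Sprr1b* and 14 in *Sprr1a*, and positions below count from it. Capitals mark TGANTCA (the site of AP-1, the dimer of JUN and FOS proteins), ATTTGCAT (the octamer bound by POU factors) and TATAAA (the TATA box). The first 3 genes passed the test for a higher level in iASPP KO, *Sprr2b* did not, and of the *Sprr1* pair *Sprr1b* did.
Sprr2d (chr3:92338940-92339139, plus strand): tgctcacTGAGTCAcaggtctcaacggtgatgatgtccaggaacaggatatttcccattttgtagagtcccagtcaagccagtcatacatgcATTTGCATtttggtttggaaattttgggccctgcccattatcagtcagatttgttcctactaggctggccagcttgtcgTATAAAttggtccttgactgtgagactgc
Sprr2e (chr3:92351943-92352142, plus strand): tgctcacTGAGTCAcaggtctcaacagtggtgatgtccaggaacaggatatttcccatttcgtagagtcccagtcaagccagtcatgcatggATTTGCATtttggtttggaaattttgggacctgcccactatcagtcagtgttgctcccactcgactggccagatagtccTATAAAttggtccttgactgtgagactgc
Sprr2h (chr3:92385485-92385684, plus strand): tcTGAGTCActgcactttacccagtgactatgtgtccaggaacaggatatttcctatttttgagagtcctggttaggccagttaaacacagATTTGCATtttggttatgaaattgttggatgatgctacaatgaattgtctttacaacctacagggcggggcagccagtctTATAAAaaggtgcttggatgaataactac
Sprr2b (chr3:92316505-92316704, plus strand): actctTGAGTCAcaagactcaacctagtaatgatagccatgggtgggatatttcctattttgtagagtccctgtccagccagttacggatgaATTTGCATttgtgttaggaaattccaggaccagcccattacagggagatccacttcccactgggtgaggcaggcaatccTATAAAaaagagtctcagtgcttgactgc
Sprr1b (chr3:92438780-92438979, minus strand): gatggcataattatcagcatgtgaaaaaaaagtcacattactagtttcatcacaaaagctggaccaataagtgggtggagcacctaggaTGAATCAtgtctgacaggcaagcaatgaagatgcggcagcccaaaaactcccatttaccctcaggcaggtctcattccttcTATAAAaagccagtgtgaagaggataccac
Sprr1a (chr3:92485882-92486081, minus strand): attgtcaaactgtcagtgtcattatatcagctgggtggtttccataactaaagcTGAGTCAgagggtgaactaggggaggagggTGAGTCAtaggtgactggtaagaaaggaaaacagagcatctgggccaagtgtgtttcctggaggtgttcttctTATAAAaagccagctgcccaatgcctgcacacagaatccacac

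The 9 members with a RefSeq promoter window (all but *Sprr2g*) were searched on both strands over 250 bases before and 50 bases after the start, as were all 32851 windows of the same length. TGANTCA occurred in 8 of the 9, in every one but *Sprr3*, and in 7.81% of all windows. In the *Sprr2* members its first base lay 193 to 198 bases before the start, with a further match at -182 in *Sprr2k*, while it lay at -111 in *Sprr1b* and at -146 and -116 in *Sprr1a*. ATTTGCAT was present in all 6 *Sprr2* windows, at -108 or -109, in none of the other 3 members and in 1.74% of all windows. Both patterns stood together in 65 windows (0.198%), of which 6 were *Sprr2* members and another was *Sprr2f*. TATAAA was found in 9 of 9 members and 13.6% of all windows. Its position did not set the groups apart as clearly, at -29 in the *Sprr2* members, -30 in *Sprr1b*, -33 in *Sprr3* and -43 in *Sprr1a*. The cyclic AMP response element TGACGTCA was in no member (1.79% of all windows), and the ETS core GGAA was in 9 of 9 but also in 96.0% of all windows. ATTTGCAT and TATAAA were added to the search after these sequences had been seen. The *Sprr2* promoters were alike beyond these patterns, since the 200 bases before the start were 64.6% to 92.0% identical over 15 pairs of *Sprr2* members. Identity was 57.7% between *Sprr1a* and *Sprr1b*, and 48.2% to 54.1% between *Sprr1* and *Sprr2* genes. The latter range was like that of *Sprr4*, which is outside the members, with the *Sprr2* members (49.6% to 53.2%). A match is a description of letters, and binding was not measured here.

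**Figure D1:**
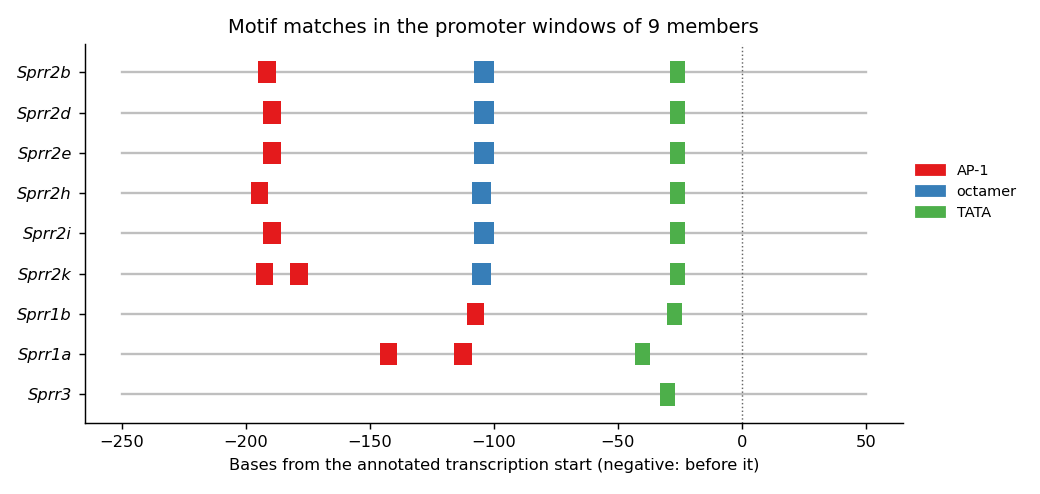
Position of matches to the AP-1 pattern, the octamer and the TATA box (coloured blocks) in bases from the transcript start (x axis) for the 9 *Sprr* members with a promoter window (y axis). The octamer is at -108 or -109 and the AP-1 pattern at -198 to -182 in the 6 *Sprr2* genes, while *Sprr1b* and *Sprr1a* have the AP-1 pattern nearer the start and no octamer.

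Of the 9 tested members, 6 showed significantly higher expression in iASPP KO than in iASPP WT, and none was lower or had a negative fitted change. The 6 were *Sprr1b*, *Sprr2d*, *Sprr2e*, *Sprr2g*, *Sprr2h* and *Sprr2i*, with folds from 1.90 to 3.77 in a model of condition and batch. Among all tested genes 2.17% were called higher and 1.95% lower at an adjusted p below 0.05 (edgeR's quasi-likelihood test, p-values adjusted by Benjamini-Hochberg over all tested genes). The median log2 fold change was 1.57 over the 9 members, from 0.47 to 1.91, and 0.01 over all tested genes. Of the *Sprr2* genes 5 of 7 were called, with a median of 1.58, and of the *Sprr1* pair 1 of 2, with a median of 0.80; *Sprr2b*, at 0.47, lay below both *Sprr1* genes, and the difference between the groups was not tested. By batch, 8 of the 9 were higher in the iASPP KO culture of all 3 batches, which held for 19.5% of all tested genes. In bulk RNA a change in the number of cells that express a gene and a change in RNA per cell cannot be told apart.

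All 6 calls rested on the comparison within batches. With condition alone in the model, 0 members and 0 genes of the table passed the edgeR test (360 genes higher and 331 lower at an unadjusted p below 0.05), and 1 member (*Sprr2d*) had an unadjusted p below 0.05. With batch in the model and batch 1, 2 or 3 left out, 6, 5 and 8 members were called higher, beside 1.09%, 1.14% and 5.20% of all tested genes. All 9 tested members were lower in batch 3 than in the other two batches, by the values given further on.

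*Sprr2d* was the member whose cultures separated by condition across batches. Its levels were 37.3, 57.6 and 19.7 CPM in iASPP KO of batches 1, 2 and 3, and 15.5, 15.1 and 6.90 CPM in iASPP WT. Every iASPP KO culture lay above every iASPP WT culture, which was so for 1 of 9 members and, in the direction of higher KO, for 5.26% of all tested genes. The fitted log2 fold change was 1.58 (SE 0.18, 2.98-fold, adjusted p = 0.00192, edgeR's quasi-likelihood test). The within-batch log2 ratios were 1.27, 1.93 and 1.50. Outside the members, the iASPP KO cultures of *Sprr2a3* also all lay above its iASPP WT cultures.

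*Sprr2e* had the largest fold among the members. Its counts were 400, 612 and 104 in iASPP KO and 122, 167 and 22 in iASPP WT. Within each batch the iASPP KO culture was the higher, but the iASPP KO culture of batch 3 lay below the iASPP WT cultures of batches 1 and 2, so the groups overlapped. The log2 fold change was 1.91 (SE 0.24, 3.77-fold, adjusted p = 0.00287, edgeR's quasi-likelihood test), with within-batch log2 ratios of 1.63, 1.99 and 2.08.

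*Sprr2h* and *Sprr2g*, next to each other in the middle of the cluster, were the most abundant *Sprr2* members. *Sprr2h* had 1843, 3088 and 937 counts in iASPP KO and 632, 1404 and 156 in iASPP WT. Its within-batch log2 ratio was 2.50 in batch 3, where the iASPP WT culture was lowest, against 1.47 and 1.27 in batches 1 and 2. The log2 fold change of *Sprr2h* was 1.71 (SE 0.21, 3.28-fold, adjusted p = 0.00282, edgeR's quasi-likelihood test). *Sprr2g* had 1450, 2411 and 536 counts in iASPP KO and 456, 1053 and 144 in iASPP WT, again higher in iASPP KO within each batch and overlapping across batches. Of all members it had the lowest adjusted p, with a log2 fold change of 1.57 (SE 0.15, 2.97-fold, adjusted p = 0.00109, edgeR's quasi-likelihood test) and within-batch ratios of 1.59, 1.32 and 1.81.

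*Sprr2i*, *Sprr2k* and *Sprr2b* had fewer reads. *Sprr2i* counts were 382, 521 and 84 in iASPP KO and 129, 271 and 21 in iASPP WT. Its higher level in iASPP KO held in each batch (1.48, 1.07 and 1.84 on the log2 scale), with a fitted log2 fold change of 1.44 (SE 0.25, 2.72-fold, adjusted p = 0.0138, edgeR's quasi-likelihood test). Without batch 2 this call was lost (log2 fold change 1.69, adjusted p = 0.0510 in edgeR). *Sprr2k* had 164, 244 and 26 counts in iASPP KO against 23, 97 and 12 in iASPP WT. Though its fold was as large as those of the called genes, its within-batch ratios ranged from 2.67 to 0.94 and it missed the threshold (log2 fold change 1.79, SE 0.45, adjusted p = 0.0544, edgeR's quasi-likelihood test). It passed in 7 of the 9 other fits with batch. *Sprr2b* had 85, 89 and 4 counts in iASPP KO and 51, 43 and 8 in iASPP WT, so that batch 3 went the other way at very low counts. *Sprr2b* did not pass the test (log2 fold change 0.47, SE 0.63, adjusted p = 0.793, edgeR's quasi-likelihood test) and, without batch 2, its fitted value was -3.9e-04.

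The *Sprr1* pair held most of the reads of the 10 members in every library. *Sprr1b* had 5194, 8581 and 1764 counts in iASPP KO and 2563, 5566 and 788 in iASPP WT. It was the higher in iASPP KO in each batch by a similar amount, 0.95, 0.75 and 1.09 on the log2 scale. The fitted log2 fold change was 0.93 (SE 0.12, 1.90-fold, adjusted p = 0.00287, edgeR's quasi-likelihood test). *Sprr1a* had 6220, 10416 and 1441 counts in iASPP KO and 3041, 5860 and 1291 in iASPP WT. Its batches did not move alike, with log2 ratios of 0.96 and 0.96 in batches 1 and 2 and 0.09 in batch 3. It missed the threshold with all 3 batches (log2 fold change 0.68, SE 0.17, 1.60-fold, adjusted p = 0.0535) and passed without batch 3 (0.96, adjusted p = 1.96e-12, both by edgeR's quasi-likelihood test). *Sprr3*, in background the SPRR gene of internal squamous epithelia such as the oesophagus, had 11, 23 and 0 counts in iASPP KO and 0 in all 3 iASPP WT libraries. It was too low to test, and a count of 0 allows up to 3 counts per library, or 0.123 to 0.141 CPM, for counting error only.

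**Figure D2:**
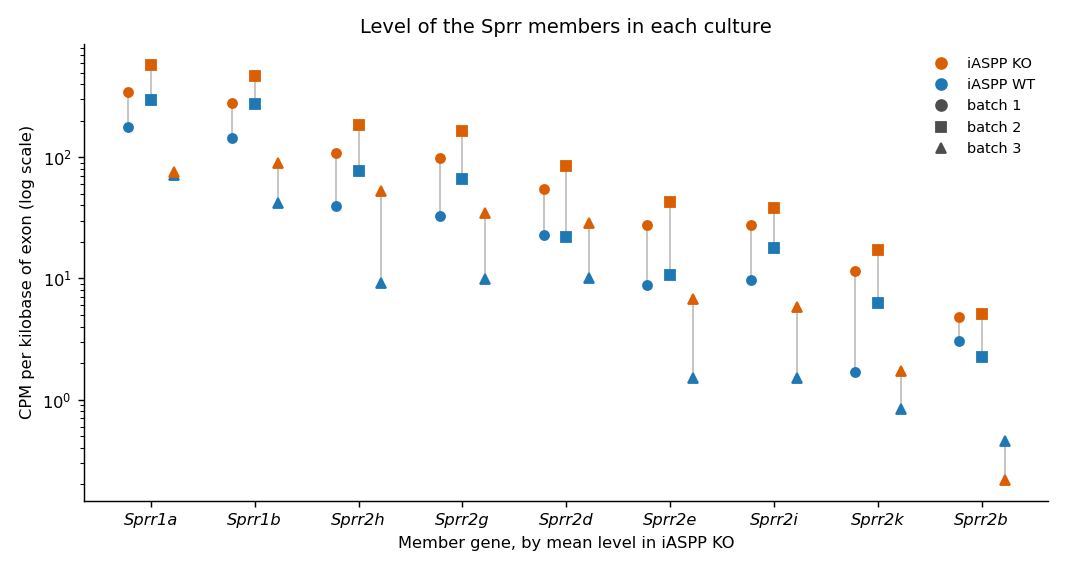
Level in CPM per kilobase of exon (y axis, log scale) of 9 *Sprr* members (x axis, by mean level in iASPP KO) in each culture, with colour for condition, symbol for batch and a line joining the cultures of 1 batch; *Sprr3*, at 0 in 4 of 6 libraries, is not drawn. The iASPP KO culture is the upper end of every line except that of *Sprr2b* in batch 3, and batch 3 is the lowest of its condition for each gene.

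Per kilobase of exon, *Sprr1a* had the highest mean level in both conditions, at 333 ± 252 CPM per kb in iASPP KO (SD, n = 3) and 182 ± 114 CPM per kb in iASPP WT. *Sprr1b* came next, at 278 ± 187 and 154 ± 117 CPM per kb (KO first, as in the values that follow). *Sprr1a* exceeded *Sprr1b* in 5 of 6 libraries, and the order of these neighbours did not differ beyond their spread. Among the *Sprr2* genes *Sprr2h* led with 115 ± 65.9 CPM per kb in iASPP KO and 41.7 ± 33.7 in iASPP WT, below *Sprr1b* in 6 of 6 libraries. *Sprr2g* followed, below *Sprr2h* in 5 of 6 libraries, and then *Sprr2d*, with 56.1 ± 27.8 and 18.3 ± 7.09 CPM per kb and below *Sprr2g* in 5 of 6. *Sprr2e* (25.6 ± 17.9 and 6.98 ± 4.81) and *Sprr2i* (23.8 ± 16.4 and 9.78 ± 8.25 CPM per kb) changed places between the conditions, *Sprr2e* being the higher in 2 of 6 libraries, and did not differ beyond their spread. *Sprr2k*, at 10.1 ± 7.82 and 2.93 ± 2.91 CPM per kb, lay below both in 6 of 6 libraries. *Sprr2b* was at 3.38 ± 2.74 and 1.92 ± 1.33 CPM per kb, and *Sprr3* reached 0.845 CPM per kb at most. Along the chromosome the level per kilobase therefore did not follow position, since the highest *Sprr2* genes lay between lower ones and *Sprr3* lay between *Sprr1b* and *Sprr1a*.

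**Figure D3:**
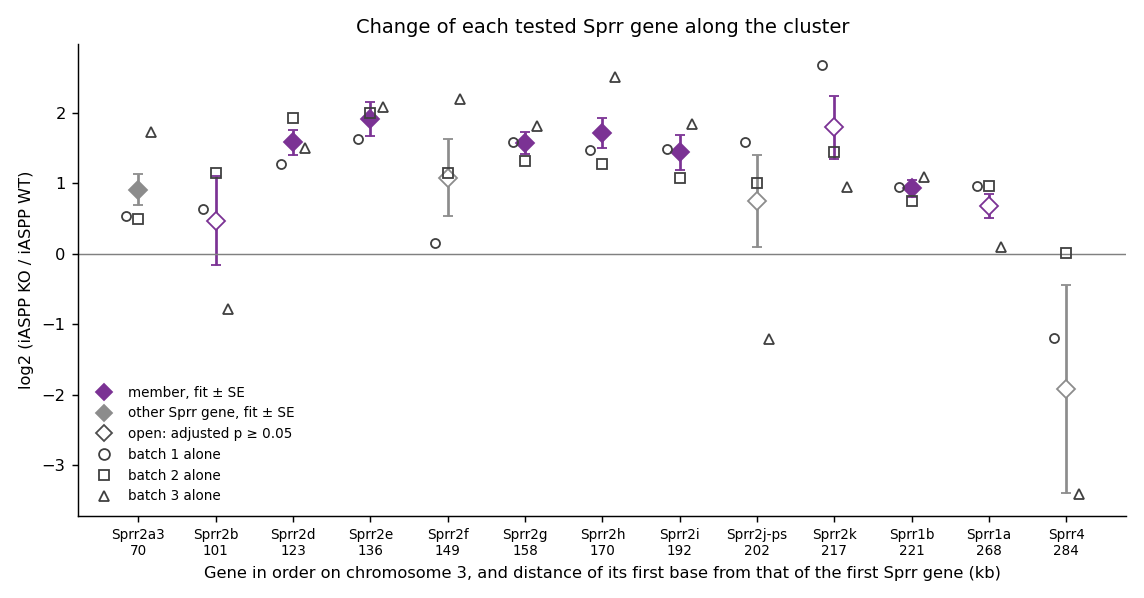
Log2 ratio of iASPP KO to iASPP WT (y axis) of the tested *Sprr* genes in their order along chromosome 3 (x axis, with distance in kb from the first *Sprr* gene), as the fitted value ± SE (diamonds, filled where adjusted p is below 0.05) and within each batch (open symbols). The 6 *Sprr2* members from *Sprr2d* to *Sprr2k* have fitted values of 1.44 to 1.91, above *Sprr1b* (0.93) and *Sprr1a* (0.68).

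The members were also summed, so that a read assigned to another member would not change the result. The sum does not recover reads lost from shared stretches. It also leaves out *Sprr* genes outside the members that share stretches with some of them. The 10 members together had 739, 1224 and 228 CPM in iASPP KO and 344, 608 and 116 CPM in iASPP WT. The ratio of iASPP KO to iASPP WT was nearly the same in every batch, at 2.15, 2.01 and 1.97 (mean log2 ratio 1.03 ± 0.06, SD, n = 3). Its parts did not keep that ratio. The *Sprr2* sum was 230, 370 and 91.6 CPM in iASPP KO and 81.7, 140 and 23.1 CPM in iASPP WT, which gave 2.82-, 2.65- and 3.97-fold within batches. For the *Sprr1* pair 508, 853 and 136 CPM in iASPP KO stood against 263, 469 and 92.6 CPM in iASPP WT, or 1.94-, 1.82- and 1.47-fold. The log2 ratio of the *Sprr2* sum exceeded that of the *Sprr1* sum in 3 of 3 batches, by 0.54, 0.54 and 1.43, and this difference was given as a description with no test. As shares of the members' counts, *Sprr1a* made up 37.5%, 38.2% and 26.9% in iASPP KO and 41.4%, 39.5% and 49.7% in iASPP WT, while *Sprr2h* made up 11.1%, 11.3% and 17.5% against 8.60%, 9.47% and 6.01%. The 10 members took 0.0242% to 0.116% of all counts of a library in iASPP KO and 0.0129% to 0.0589% in iASPP WT.

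**Figure D4:**
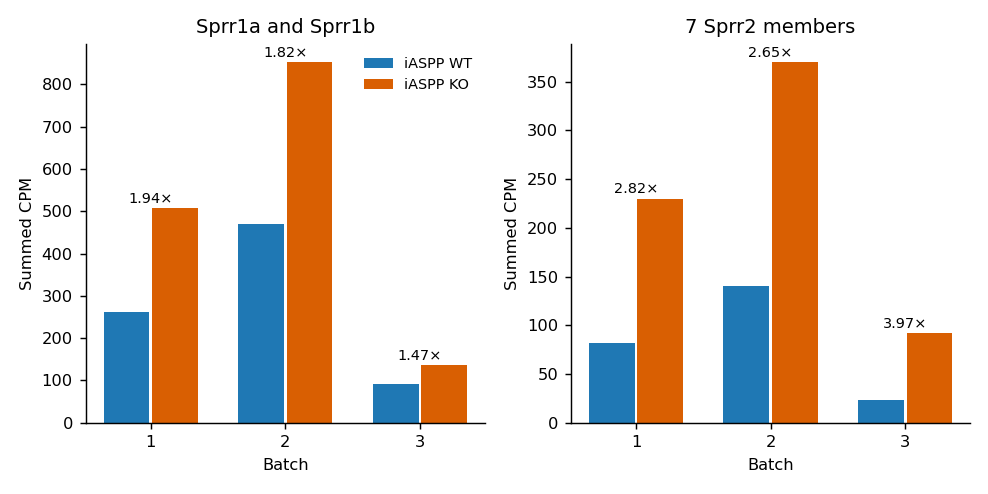
Summed CPM (y axis) of *Sprr1a* and *Sprr1b* (left) and of the 7 *Sprr2* members (right) in the iASPP WT and iASPP KO culture of each batch (x axis), with the ratio of KO to WT above each pair. The *Sprr2* ratio is the larger in every batch, at 2.65 to 3.97 against 1.47 to 1.94, and batch 3 is lowest in both panels.

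Levels of the *Sprr* genes also differed between batches. Relative to the mean of batches 1 and 2, all 9 tested members were lower in batch 3, by log2 differences of -3.95 to -1.23 in iASPP KO and -3.02 to -1.13 in iASPP WT, where the median of all tested genes was 0.03 and 0.01. *Sprr2d* had the smallest gap in both conditions (-1.23 and -1.13) and *Sprr2b* (-3.95, iASPP KO) and *Sprr2i* (-3.02, iASPP WT) had the widest. A low batch 3 was not particular to the *Sprr* genes. Among other envelope genes, *Cdsn* had 776, 838 and 126 CPM in iASPP KO of batches 1, 2 and 3, and 223, 478 and 91.1 in iASPP WT. *Tgm1* had 185, 148 and 35.4 CPM in iASPP KO and 106, 109 and 25.6 in iASPP WT. Not all envelope genes fell, since *Flg2* had 12.7, 14.8 and 15.4 CPM in iASPP WT. The batch with low *Sprr* levels is the one with 454 and 669 CPM of fibroblast markers, and the part of that in the *Sprr* levels was not tested. The 8 keratinocyte markers summed to 30141 and 28873 CPM in batch 3 (iASPP KO first), within the range of the other batches. More of that sum came from *Krt14* (17578 and 16752 CPM) than from all the others. Single markers went both ways in batch 3. *Dsg3* was at 543 and 608 CPM against 826 to 894 in batches 1 and 2, and *Perp* at 2806 and 2587 against 3644 to 4918. *Krt5* was at 5699 and 5928 CPM against 4537 to 4939.

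The other *Sprr* genes of the table gave few usable values. *Sprr2a3*, with 1318, 1693 and 2338 counts in iASPP KO and 869, 1315 and 669 in iASPP WT, was the most abundant of them. It had a log2 fold change of 0.91 (SE 0.22, 1.88-fold, adjusted p = 0.0490, edgeR's quasi-likelihood test), which missed the threshold with robust dispersion (adjusted p = 0.0949) and was 0.51 without batch 3. Of its stretches of 42 bases 65.8% also occur in other genes, as do 96.6% of those of *Sprr2a1* and 97.0% of those of *Sprr2a2*, so its value is uncertain. Unlike the 9 tested members, *Sprr2a3* was not lower in batch 3 in iASPP KO (log2 difference 0.57). Its RefSeq promoter window, whose start lies 113 bases before that of the count table, holds none of TGANTCA, ATTTGCAT and TATAAA. Whether that window is its promoter was not tested. *Sprr2f* (1.08, SE 0.54, adjusted p = 0.353), the pseudogene *Sprr2j-ps* (0.75, SE 0.65, adjusted p = 0.650) and *Sprr4* (-1.92, SE 1.48, adjusted p = 0.600) did not pass the edgeR test. *Sprr4* had 3, 11 and 0 counts in iASPP KO and 9, 12 and 19 in iASPP WT. *Sprr2a1*, *Sprr2a2* and *Sprr2c-ps* were at 0 in most or all libraries and were not tested. Of the nearest tested genes outside the cluster, *Gm35439*, 37891 bases before it, had a log2 fold change of 1.01 (SE 0.28, adjusted p = 0.0840), and *2310046K23Rik*, 32011 bases after it, one of -0.42 (SE 0.52, adjusted p = 0.769, both by edgeR's quasi-likelihood test).

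Other genes of the cornified envelope and late keratinocyte differentiation, with the transglutaminases, were compared as a list of 22 genes (the envelope list). Not all of them encode proteins that SPRRs are joined to or enzymes that join them. Among all tested genes 2.17% were called higher and 1.95% lower. Of the 22 listed, 5 were higher in iASPP KO, 3 were lower and 14 passed in neither direction. Their median log2 fold change was 0.28, against 1.57 in the *Sprr* members. The higher ones included the transglutaminases *Tgm3* (1.45, SE 0.34, adjusted p = 0.0428) and *Tgm1* (0.57, SE 0.12, adjusted p = 0.0292), which cross-link the envelope. *Cdsn*, an adhesive protein of corneodesmosomes (1.03, SE 0.21, adjusted p = 0.0257), *Sbsn* (0.67, SE 0.11, adjusted p = 0.00864) and *Ppl*, the scaffold protein periplakin (0.52, SE 0.11, adjusted p = 0.0340), were higher by the same edgeR test. *Ivl*, the gene of involucrin (0.62, SE 0.18, adjusted p = 0.100), and *Lor*, that of loricrin (0.32, SE 0.19, adjusted p = 0.475), did not pass it, though *Ivl* did with DESeq2 (adjusted p = 0.0478), without the filter on low counts (0.00502) and without batch 3 (3.57e-06), and *Lor* without batch 3 (0.0477). Lower in iASPP KO were *Flg2* (-2.16, SE 0.33, adjusted p = 0.00711) and *Flg* (-0.89, SE 0.21, adjusted p = 0.0428), which encode the filaggrins, and the suprabasal keratin *Krt10* (-1.31, SE 0.29, adjusted p = 0.0330), again in edgeR. Without batch 1 only *Flg*, *Flg2* and *Tgm3* of the list passed, and without batch 2 these 3, *Cdsn* and *Casp14* did. With robust dispersion *Flg2*, *Ppl*, *Tgm1* and *Sbsn* passed, and with DESeq2 the calls of *Tgm3* (adjusted p = 0.163), *Cdsn* (0.0929) and *Krt10* (0.144) were lost.

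Transcription factors of keratinocyte differentiation, or known from work on *Sprr* promoters, formed a list of 24 tested genes. Of the 24, 2 were higher, 1 was lower and 21 passed in neither direction (median log2 fold change 0.24). The shares over all tested genes were 2.17% higher and 1.95% lower. *Junb*, an AP-1 subunit, had 516, 585 and 363 CPM in iASPP KO and 339, 429 and 265 CPM in iASPP WT. It was higher in each batch, though the iASPP KO culture of batch 3 lay within the iASPP WT range, with a log2 fold change of 0.50 (SE 0.11, adjusted p = 0.0296, edgeR's quasi-likelihood test). It was the 1 called of 7 AP-1 subunits tested, of which 5 had a positive fitted change. *Jun* was lower in iASPP KO in every batch (-0.55, SE 0.17, adjusted p = 0.120) and *Fos* was higher (0.66, SE 0.18, adjusted p = 0.0767). Neither passed the edgeR test. With DESeq2 both passed, *Jun* as lower (adjusted p = 0.0443) and *Fos* as higher (adjusted p = 0.0497). *Cebpb*, a leucine zipper factor, was also higher (0.54, SE 0.12, adjusted p = 0.0389, edgeR). *Pou3f1*, a POU factor of the class that binds the octamer, was lower, at 34.2, 24.2 and 32.5 CPM in iASPP KO and 56.4, 35.4 and 48.2 CPM in iASPP WT (-0.61, SE 0.14, adjusted p = 0.0353, edgeR). The epidermal POU factor *Pou2f3* did not pass (-0.67, adjusted p = 0.127, edgeR). The edgeR calls of *Junb*, *Cebpb* and *Pou3f1* were lost without batch 1 and without batch 2, where 0 genes of the list passed.

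**Figure D5:**
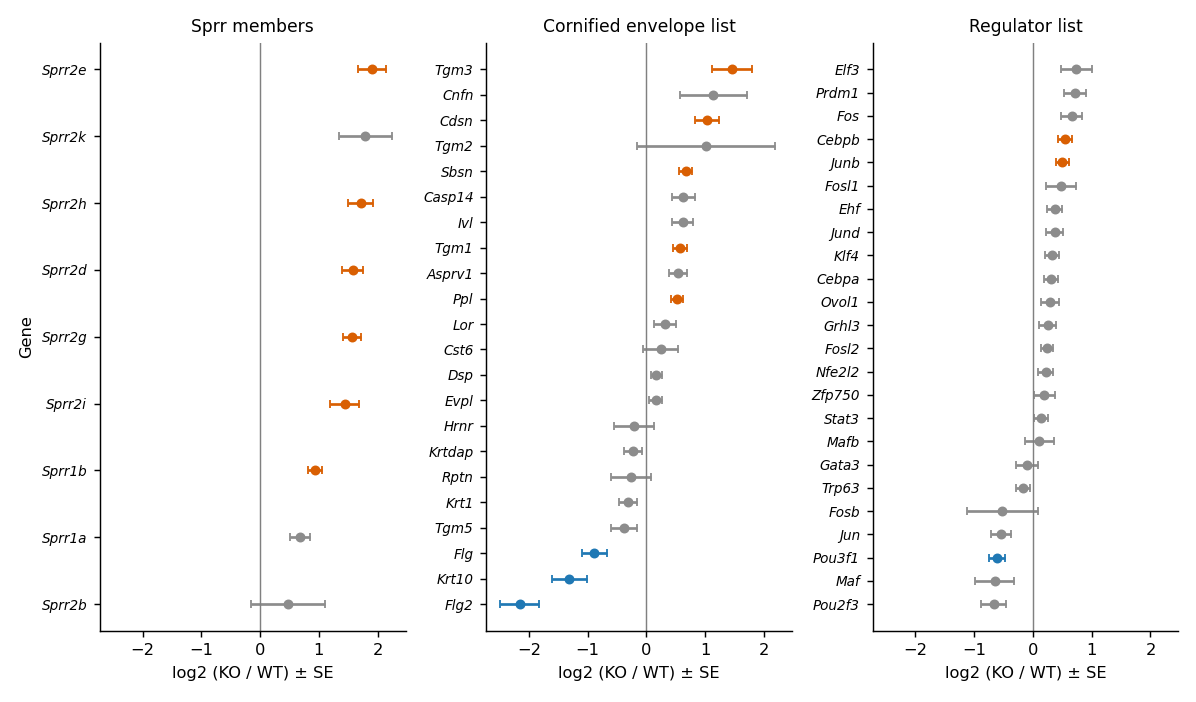
Log2 fold change with SE (x axis, iASPP KO over iASPP WT) of the 9 tested *Sprr* members, the 22 genes of the envelope list and the 24 regulators (y axes). Colour marks genes that passed the test, orange for higher and blue for lower. The *Sprr* members lie between 0.47 and 1.91, whereas the genes of the envelope list spread from -2.16 to 1.45.

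The genes outside the family whose pattern over the 6 libraries was most like that of the members were found by the root mean square (RMS) difference from the mean centred log2 CPM of the 9 tested members. That mean was 1.13, 1.72 and -0.87 in iASPP KO and -0.28, 0.40 and -2.10 in iASPP WT, so it differed by batch as well as by condition. The closest were *Tfcp2l1*, a transcription factor (RMS difference 0.14), *Slpi*, a secreted protease inhibitor (0.14), *Slc7a11*, the cystine transporter (0.16), *Csf1r*, the receptor of macrophage colony-stimulating factor (0.18), and *Aif1l* (0.20). The median over all tested genes was 1.32. Members themselves, which are part of the mean, differed from it by 0.22 (*Sprr2g*), 0.23 (*Sprr1b*) and up to 0.82 (*Sprr2b*). *Slpi*, for example, had 276, 407 and 81.4 CPM in iASPP KO and 98.1, 187 and 35.8 CPM in iASPP WT. The log2 fold changes of the 5 genes were 1.31, 1.27, 1.11, 1.11 and 1.11 in that order. The 5 were picked by likeness to a mean that was higher in iASPP KO in every batch, so such fold changes follow from the choice. *Csf1r* also stands in the list of 6 macrophage and leukocyte markers, of which 4 were tested and it alone was called (adjusted p = 0.0206, edgeR), a call lost without batch 1 (0.0612) and without batch 2 (0.112). This list summed to 60.2, 68.4 and 21.8 CPM in iASPP KO and 40.7, 57.6 and 14.0 CPM in iASPP WT, with *Cd207* below 1 CPM in all libraries and none of the 6 at 0 throughout, and its part in the *Sprr* levels was not tested. Of the 4 melanocyte markers (328 to 1048 CPM summed) and the 3 endothelial markers (2.16 to 12 CPM) none was called.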

How the data were processed

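RNA from 6 keratinocyte libraries, grouped by the labels into iASPP KO and iASPP WT in 3 batches, was analysed. The authors trimmed reads with cutadapt 2.10, aligned them with STAR 2.7.3 to mm10 and deposited raw counts per gene name from featureCounts 2.0.0, by strand. Per the file header, reads with several alignments were not counted, so reads from stretches that gene copies share can be lost. A deposited table of the authors' DESeq2 comparison (log2 fold changes moderated with ashr, p-values) was not used. All columns of counts were used.

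The test was edgeR's quasi-likelihood test (4.0.16, R 4.3.3) after filterByExpr and TMM, with batch and condition in the model, Benjamini-Hochberg adjustment over all tested genes and a threshold of 0.05. The SE is the absolute log2 fold change over the root of F. For log2 ratios within a batch, a prior count of 2 was used. CPM per kb is TMM-scaled CPM over exon length. Steps were tested on simulated data. DESeq2 1.42.0 was an alternative.

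Cultures of 1 batch deviated together from their group means (correlation 0.302, 0.368 and 0.568), and the labels give the batch. Nothing says how the batches relate to animals. With batch in the model, p-values measure how the difference between iASPP KO and iASPP WT varied over these batches. The dispersion (the spread of counts) behind them is partly shared across genes. Fits without 1 batch have fewer libraries, so their p-values lean more on that shared dispersion. Members and gene lists were chosen with earlier results of these data known. Genes named are the members, other *Sprr* genes, the nearest tested neighbours, *Ppp1r13l*, list genes past the threshold with *Ivl* and *Lor*, and the 5 most like genes. Naming *Pou2f3*, *Jun*, *Fos*, *Casp14*, *Col1a2*, *Col3a1*, *Dsg3* and *Perp* was decided after their values were seen.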

Additional observations from a re-analysis of the deposited data

How the results depend on the processing

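Without the batch block (condition alone) the members called higher fell from 6 to 0, all genes called from 323 higher and 291 lower to 0 and 0 (360 and 331 at an unadjusted p below 0.05 in edgeR), and the calls of the cornified envelope and regulator lists from 8 and 3 to 0 and 0. No fit called a member lower, and none had one lower at an unadjusted p below 0.05. The blocked fits with other scaling, filters, dispersion or DESeq2 moved the members' count by less than 1.5 times. With no filter beyond 1 count, 624 genes were higher and 491 lower, and 6 regulators passed, as with DESeq2 (6), while robust dispersion left 4 envelope genes. Leaving out 1 batch gave 169 to 793 genes higher, 117 to 662 lower, 5 to 8 members, 3 to 15 envelope genes and 0 to 13 regulators, each highest without batch 3; *Sprr2b* ran from -3.9e-04 without batch 2 to 0.92. *Sprr1a* passed in 6 and *Sprr2k* in 7 of 9 other blocked fits, at adjusted p of 1.96e-12 to 0.308 and 9.15e-06 to 0.332 (edgeR or DESeq2). Summing all *Sprr2*-named genes gave log2 ratios of 1.22, 1.20 and 1.85 in batches 1, 2 and 3, against 1.49, 1.41 and 1.99 for the 7 *Sprr2* members, while all *Sprr*-named genes gave 1.05, 0.97 and 1.16 against 1.10, 1.01 and 0.98 for the 10 members. With a prior count of 0.5 the *Sprr3* log2 ratio of batch 2 was 5.58. The cause of these shifts was not tested. At this depth *Sprr3* could not be tested.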
